A study of Caenorhabditis elegans with 4 samples.

Results

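The middle part of *Caenorhabditis elegans* chromosome II carried 628 of the 23530 HPL-2 peaks that the authors deposited as a series-level list for wild-type N2 larvae. These members are the series-level peaks on chromosome II whose midpoint lies from 5090001 to 10190000 (WormBase WS220), a stretch of 5.1 Mb called the centre here, and the 10.2 Mb outside it are called the arms. The rule is positional and used no measured height. The last peak outside on the left ran from 5061870 to 5062057 and the first inside from 5100048 to 5100295. The last peak inside on the right ran from 10174330 to 10175019 and the first outside from 10197153 to 10197321.

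The series is a ChIP-seq study (sequencing of DNA recovered by chromatin immunoprecipitation) of L3 larvae of strain N2, a wild-type genotype, grown at 20 °C, with males and hermaphrodites in 1 population. It has 2 ChIP libraries, made with the rabbit polyclonal antibody SDQ2340 against HPL-2, and 2 libraries of input DNA. All 4 samples share strain, stage and genotype, so the design compares ChIP with input and holds no second condition. Peak lists of the 2 ChIP libraries and the series-level list were analysed here, and the inputs were not. Whole larvae were used, so the cells in which a peak was occupied are not known.

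HPL-2 is a member of the heterochromatin protein 1 (HP1) family. HP1 proteins bind methylated lysine on histone H3 through a chromodomain and pair with each other through a chromoshadow domain, and HPL-2 acts in the synMuv B group of genes that keep germline genes silent in somatic cells. On *C. elegans* autosomes the arms are rich in repeats and in histone H3 lysine 9 methylation, while the centres hold most of the conserved and broadly expressed genes, so a peak in a centre lies in a different setting from one in an arm.

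Fewer HPL-2 peaks were called in the chromosome II centre in replicate 2 than in replicate 1. The centre held 543 peaks in the replicate 1 list and 243 in the replicate 2 list, or 106 and 47.6 peaks per Mb (mean 77.1 ± 41.6, SD, n = 2). On the arms the lists were close, with 251 and 230 peaks per Mb (mean 240 ± 14.5, SD, n = 2). Peaks covered 201 kb of the centre in replicate 1 (3.95% of its length), 66.3 kb in replicate 2 (1.30%) and 231 kb in the series-level list (4.52%). The series-level density was 123 peaks per Mb in the centre and 284 on the arms. The log2 ratio of centre to arms was -1.23 for the replicate 1 list and -2.27 for the replicate 2 list (mean -1.75 ± 0.73, SD, n = 2), so both lists were sparser in the centre and the size of that deficit depended on the list. With 2 lists an exact sign-flip permutation test cannot give a p below 0.5, and the values below are therefore given per list, with no p.

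The ratio of replicate 2 to replicate 1 peaks was 0.448 in the chromosome II centre, against 0.918 on the chromosome II arms and 0.803 over all chromosomes. The other centres also had fewer replicate 2 peaks. Their ratios were 0.491 on chromosome III, 0.524 on I, 0.613 on X, 0.615 on V and 0.639 on IV. Chromosome II stood at the low end of this order, next to chromosome III.

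Each member was sorted by overlap with the replicate lists, at least 1 bp counting as support. Of the 628 members, 156 were found in both lists, which is 24.8% (Wilson 95% interval 21.6 to 28.4%), against 43.5% of all series-level peaks. Replicate 1 alone supported 368 members (58.6%, interval 54.7 to 62.4%), against 39.1% of all peaks. Replicate 2 alone supported 23 (3.66%, interval 2.45 to 5.44%), against 8.16%, and neither list supported 81 (12.9%, interval 10.5 to 15.7%), against 9.23%. The 391 members with a single supporting list were thus nearly all from replicate 1, and both-list support was less frequent than in the list as a whole.

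On the arms of the same chromosome 51.4% of 1422 left-arm peaks and 47.0% of 1465 right-arm peaks were found in both lists. The centres of the other chromosomes were near the chromosome II centre, with 25.5% on X (interval 22.0 to 29.5%), 26.1% on III, 28.7% on I, 30.1% on V and 30.6% on IV (interval 27.2 to 34.3%). The intervals of these 5 centres overlapped that of chromosome II. A denser replicate list is met by chance more often, and both lists were sparser in the centre (106 and 47.6 peaks per Mb) than on the arms (251 and 230). The part of that density in the difference was not tested. These intervals cover counting error only, and neighbouring peaks are not independent, so they are too narrow.

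**Figure D1:**
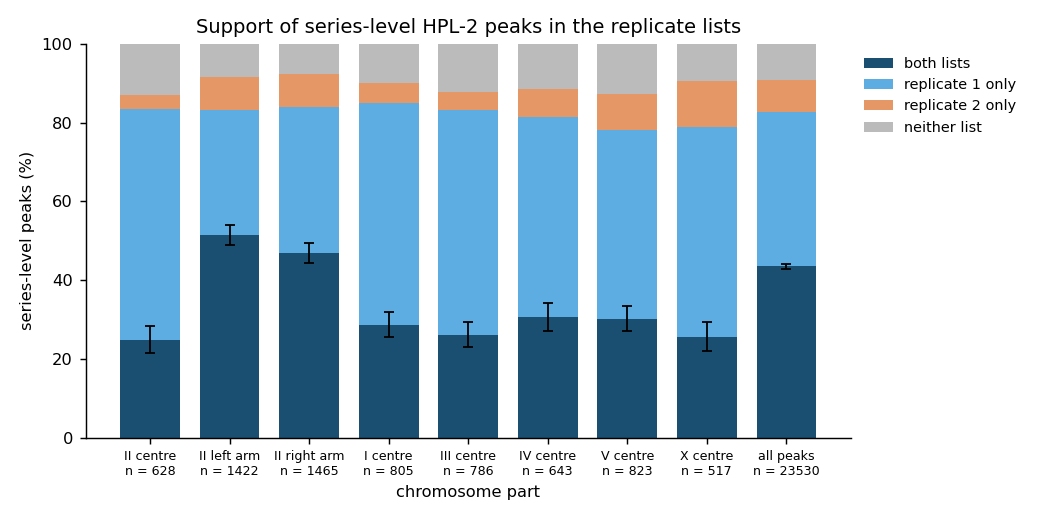
Share of series-level peaks (vertical axis, percent) found in both replicate lists, in 1 list or in neither, for the chromosome II centre, its arms, the other centres and all peaks. Black bars are Wilson 95% intervals on the share found in both, which is 24.8% in the chromosome II centre, 51.4% and 47.0% on its arms and 43.5% over all peaks.

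Members with support in both lists had the highest scores. The score is the authors' own value for each peak, on a scale that is not stated, and it ranks peaks within a list only. The series-level scores and the replicate lists come from the same study and are not independent measures. Its median was 31.2 for members found in both lists (quartiles 14.8 and 48.3). Members with replicate 1 support only had a median of 9.95, those with replicate 2 support only 5.86 and those with none 5.01. In the same order of classes the medians were 30.78, 10.29, 6.35 and 4.835 on the arms. Over all series-level peaks they were 27.54, 10.56, 6.23 and 4.93, so this order was that of the whole list. In the top score quartile of the series-level list, 86 of 123 members were found in both lists (69.9%, interval 61.3 to 77.3%) and none in neither, against 757 of 836 arm peaks in that quartile (90.6%, interval 88.4 to 92.4%). The quartile's peaks were narrower in the centre, with a median of 366 bp for the members and 522 bp on the arms. The share was 27.9% of members and 57.3% of arm peaks in the quartile below, then 15.7% and 29.4%, and in the bottom quartile 2.54% and 9.06%. In each quartile the share found in both was lower in the centre than on the arms. Over all chromosomes, 5078 of the 5883 peaks in the top quartile were found in both lists. No peak found in neither list was in it. In the other centres the numbers were 117 of 158 on I, 106 of 149 on III, 83 of 117 on IV, 93 of 123 on V and 47 of 91 on X. The lower quartiles are not given here for those centres.

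The centre had a smaller share of high-scoring peaks than the arms. Of its members, 19.6% lay in the top score quartile of the series-level list and 31.4% in the bottom one, against 29.0% and 23.3% of the chromosome II arm peaks. The top quartile holds 25% of all series-level peaks, and its share in the other centres ranged from 14.9% on V to 19.6% on I, so the chromosome II centre was not low among them. The highest score in the centre was 99.71, and no member reached the list's ceiling of 102.28, which 22 peaks on the chromosome II arms and at most 1 in each of the other centres did. The median member stood at the 40.8th percentile of all series-level scores, and the median chromosome II arm peak at the 53.6th.

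Of the members, 75.5% were under 400 bp wide. The median width of series-level peaks was 248.5 bp in the centre (quartiles 182 and 397 bp) and 281 bp on the arms. It was 253 bp in the centre and 279 bp on the arms in replicate 1, and 194 bp in the centre and 240 bp on the arms in replicate 2. Members found in both lists had a median width of 429 bp (quartiles 273 and 761 bp). It was 239.5 bp for support by replicate 1 alone, 192 bp for support by replicate 2 alone and 161 bp for no support. These medians were close to those of the same classes on the arms, at 424, 232.5, 187.5 and 160 bp. Within a class, the median widths in the centre and on the arms differed by at most 7 bp, while the shares of the classes differed.

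Width enters the overlap rule, because a wide peak is met more easily. Among members up to 200 bp wide, 8 of 205 were found in both lists (3.90%), and among arm peaks of that width 8.23%. From 200 to 300 bp the shares were 21.8% in the centre and 45.2% on the arms, and from 300 to 500 bp 35.3% and 61.1%. Above 1000 bp 25 of 31 members were found in both (80.6%, interval 63.7 to 90.8%), against 94.7% of 226 arm peaks. When the supporting peaks had to cover 50% of the series-level peak, 15.8% of members and 39.9% of arm peaks were found in both lists. Under that rule the median width of members found in both was 1.27 times that of the rest, against 1.98 times under the 1 bp rule.

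**Figure D2:**
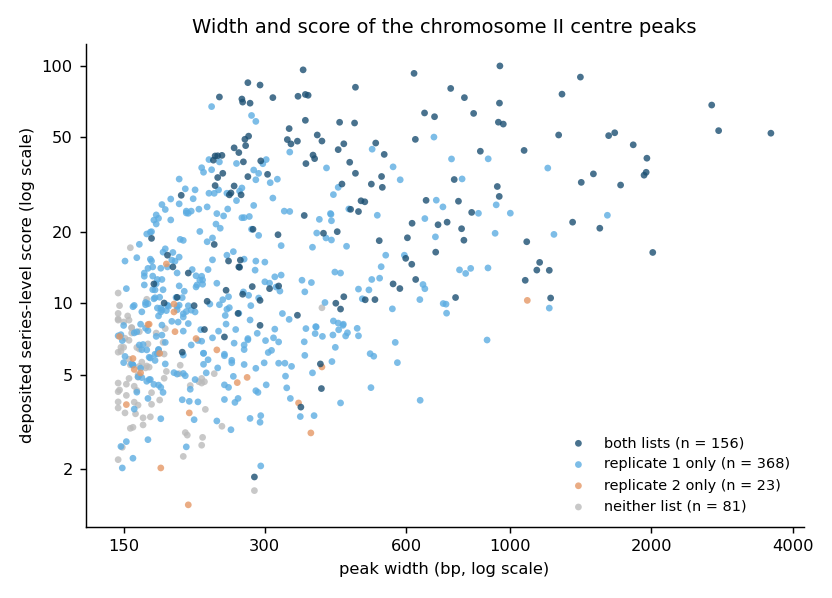
Width (horizontal axis, bp) and deposited score (vertical axis) of the 628 members, both on log scales, coloured by support. Members found in both lists reach 3597 bp and a score of 99.71, while those found in neither stay below 400 bp, at most 397 bp wide.

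Peaks wider than 1000 bp made up 31 of 628 members (4.94%), against 7.83% of the chromosome II arm peaks and 6.74% of all series-level peaks. In the other centres they made up 3.68% (X) to 6.07% (IV), a range that holds the chromosome II value. The maximum width was 3597 bp in the centre and 10053 bp on the arms. The widest ran from 7892300 to 7895896 (score 51.97). Replicate 1 had it as 1 peak of 3589 bp, and replicate 2 as 4 peaks with 1523 bp in total. The second ran from 7343613 to 7346395 (2783 bp), with 2570 bp in replicate 1 peaks and a single peak of 216 bp in replicate 2. The third ran from 8743463 to 8746152 (2690 bp), with 2657 bp in replicate 1 and 817 bp in 2 peaks of replicate 2. The fourth, from 6795631 to 6797644 (2014 bp), had a score of 16.37, far under the other 4. A 1969 bp peak of replicate 1 filled most of it, and the 3 peaks of replicate 2 had 481 bp in total. The fifth ran from 7889264 to 7891220 (1957 bp), next to the widest one, with 1862 bp in replicate 1 and 474 bp in replicate 2. In all 5 the replicate 2 peaks covered less than the replicate 1 peaks did, and each of the 5 lost its support from 1 list when 50% of its length had to be covered.

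Replicate 1 peaks were also mostly the wider ones among members that matched a single peak in each list. Of the 156 members found in both lists, 135 matched a single peak in each list, 6 were split into several peaks by replicate 1 alone, 11 by replicate 2 alone and 4 by both. In the 135 matched members the median width was 331 bp in replicate 1 and 197 bp in replicate 2, and the replicate 1 peak was the wider one in 108 (80%). Their midpoints lay a median of 36 bp apart, with 25% of them over 89.2 bp and the largest distance 750 bp. In 77.0% of these members the midpoints lay within 100 bp of each other, while the widths mostly differed. Both peaks had to overlap the same series-level peak (median width 367 bp), so near midpoints are partly fixed by the matching.

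The 10 highest-scoring members found in both lists were spread over the centre, and 4 of them had no other series-level peak within 5 kb. The first ran from 9633710 to 9634660 (951 bp, score 99.71), with scores of 74.64 in replicate 1 and 167.28 in replicate 2. The next, from 7319483 to 7319844, was only 362 bp wide (score 96.00) and scored 75.42 and 80.64 in the replicates. The third, from 7863563 to 7864186 (624 bp, score 92.77), had a replicate 2 score of 275.57, the highest of that list in the centre, and a replicate 1 score of 71.76. The fourth ran from 8459639 to 8461050 (1412 bp, score 89.49). All of these ranked above the 95th percentile of each replicate list.

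The next 6 were 276 to 1290 bp wide. A peak of 276 bp from 5866978 to 5867253 scored 84.78, and one of 293 bp from 7252278 to 7252570 scored 82.86 with its nearest neighbour 27.3 kb away. The peak from 9655956 to 9656423 (468 bp, score 81.11) stood high in replicate 1 (score 67.70, 97.8th percentile) and lower in replicate 2 (17.39, 70.8th percentile), and it too lost support from 1 list under the 50% rule. The peak from 8877102 to 8877848 (747 bp, score 80.18) lay 12.9 kb from its neighbour. The last of the 10 were a peak of 1290 bp from 9201941 to 9203230 (75.86) and one of 366 bp from 10033470 to 10033835 (75.63). Across all 156 members found in both lists, the median percentile was 71.7 in the replicate 1 list and 51.5 in the replicate 2 list.

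Isolation was measured as the gap to the nearest series-level peak. The median gap was 519.5 bp in the centre and 308 bp on the arms. A neighbour within 1 kb was present for 386 of 628 members (61.5%, interval 57.6 to 65.2%), against 73.1% of all series-level peaks. A gap of 1 to 5 kb was found for 139 members (22.1%), and 103 had no neighbour within 5 kb (16.4%, interval 13.7 to 19.5%), against 7.06% of all peaks and 5.37% of the chromosome II arm peaks. In the centres of the other chromosomes the isolated share was 11.96% on III, 12.9% on V, 13.3% on I, 16.6% on IV and 23.0% on X. The replicate lists gave different sizes for the centre, with 17.7% of replicate 1 peaks and 33.7% of replicate 2 peaks isolated in their own list, against 6.43% and 7.60% on the arms. Sparser lists have longer gaps, and the part of density in these shares was not tested.

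**Figure D3:**
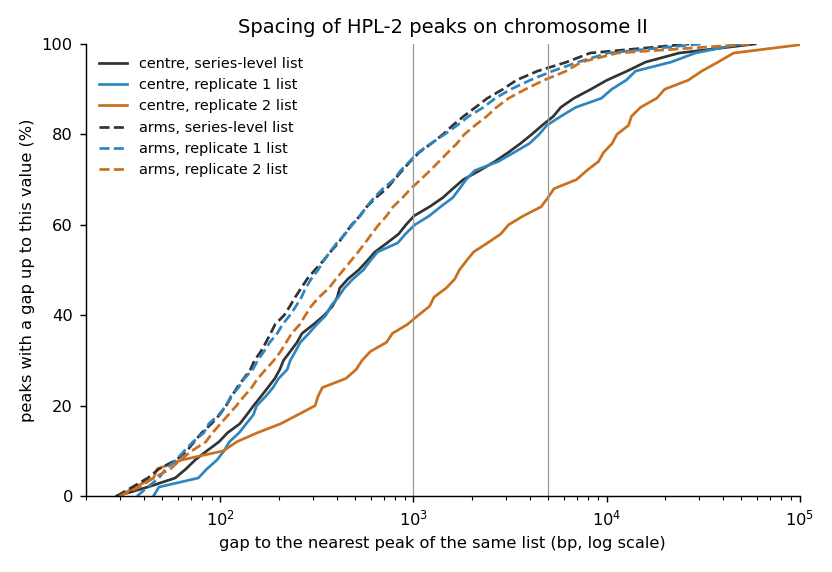
Share of peaks (vertical axis, percent) with a gap to the nearest peak of the same list up to the value on the horizontal axis (bp, log scale), for the chromosome II centre (solid) and arms (dashed) in the 3 lists. Grey lines mark 1 kb and 5 kb. The centre curves lie right of the arm curves at 5 kb, and replicate 2 in the centre is farthest right, with 33.7% of its peaks beyond 5 kb.

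In the centre, isolated members were found in both lists about as often as grouped ones. The share found in both was 25.2% of the 103 members with a gap over 5 kb, 25.2% of the 139 with a gap of 1 to 5 kb and 24.6% of the 386 with a gap up to 1 kb. On the arms the same shares were 31.6%, 40.0% and 52.8%. The centres of chromosomes III (21.3%, 27.0% and 26.6%) and V (27.4%, 28.5% and 31.3%) were closer to the chromosome II centre in this. Read the other way, 26 of the 156 members found in both lists were isolated (16.7%, interval 11.6 to 23.3%), as were 53 of the 368 in replicate 1 only (14.4%, interval 11.2 to 18.4%) and 16 of the 81 in neither (19.8%, interval 12.5 to 29.7%). Of the 23 in replicate 2 only, 8 were isolated (34.8%, interval 18.8 to 55.1%). For peaks in replicate 2 only this share was 9.58% of 240 on the arms and 10.1% of 1919 over all chromosomes. In the other centres it ranged from 14.9% on V to 37.7% on X. On the arms 3.45% of the peaks found in both lists were isolated (interval 2.62 to 4.54%), against 6.34% of those in replicate 1 only and 8.55% of those in neither.

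Median scores of members found in both lists were also similar across gap classes. Among members found in both lists, the median score was 32.6 at a gap over 5 kb (n = 26), 31.8 at 1 to 5 kb (n = 35) and 31.0 up to 1 kb (n = 95). Arm peaks found in both lists had medians of 24.1, 22.4 and 32.9 in the same gap classes. In the centre of chromosome III these medians were 29.7, 29.9 and 28.8, and in that of chromosome V 18.4, 18.7 and 20.9, so similar medians across gap classes were also seen there. Over all members, whatever their support, the median score was 14.2 for isolated members, 11.3 for the middle class and 10.2 for grouped members, with wide and overlapping quartiles (6.37 to 26.5, 6.11 to 27.3 and 6.17 to 20.6). In the replicate 1 list these medians were 11.3, 9.10 and 8.40, and in replicate 2 they were 8.23, 8.64 and 7.58. Replicate 2 therefore did not show the order seen in the other lists. Series-level peaks elsewhere did not show it either. In the same gap classes, whatever the support, the medians were 10.66, 10.66 and 15.94 on the arms. They were 12.6, 13.6 and 10.65 in the centre of chromosome III, and 11.8, 8.74 and 9.94 in that of V.

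Isolated members were narrower than grouped ones. The median width was 224 bp at a gap over 5 kb, 228 bp at 1 to 5 kb and 271 bp up to 1 kb. Peaks wider than 500 bp were 7 of 103 isolated members (6.80%), 8 of 139 in the middle class (5.76%) and 92 of 386 grouped members (23.8%). Among members found in both lists the medians were 358, 294 and 599 bp. Isolated members found in both lists were thus narrower than grouped ones at a similar median score. Narrower isolated peaks were also seen elsewhere. Medians over 5 kb and up to 1 kb were 223 and 303.5 bp on the arms. They were 201 and 268 bp in the chromosome III centre, and 212.5 and 256 bp in that of V. For peaks found in both lists they were 296 and 465 bp, 311 and 502 bp, and 281 and 450.5 bp. Peaks wider than 500 bp were 11.0% of isolated and 28.2% of grouped arm peaks.

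**Figure D4:**
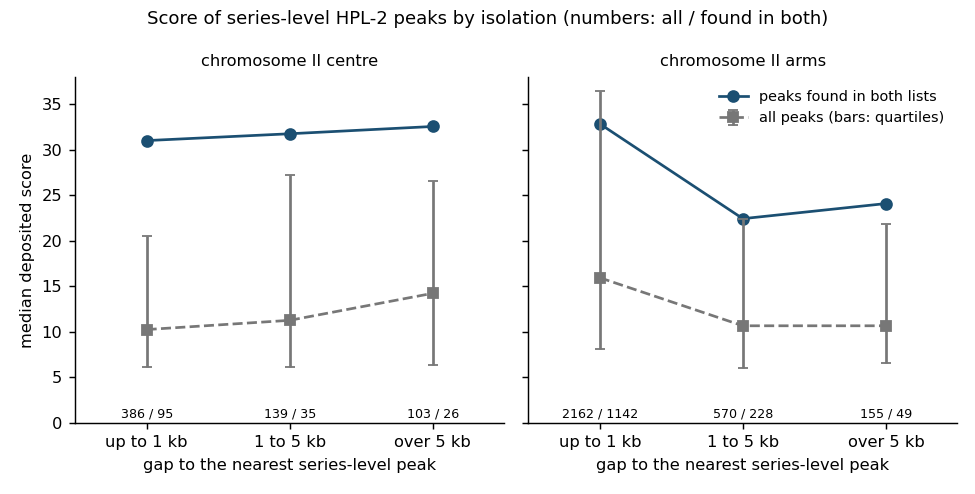
Median deposited score (vertical axis) of series-level peaks by gap to the nearest series-level peak, in the chromosome II centre (left) and arms (right). Circles are peaks found in both lists, squares all peaks with bars from the lower to the upper quartile, and the numbers above the axis count all peaks and those found in both. In the centre the circles stay between 31.0 and 32.6, and on the arms between 22.4 and 32.9.

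The 5 most isolated members had weak or single-list support. The first, from 6081969 to 6082148 (180 bp), lay 58.8 kb from the nearest series-level peak and had a score of 2.03. Only replicate 2 had a peak there (score 8.32), and the nearest replicate 1 peak was 61.3 kb away. The other 4 were found in replicate 1 only, namely peaks from 8658797 to 8659030 (gap 42.1 kb, score 29.03), from 8185080 to 8185230 (36.2 kb, 15.06), from 6645770 to 6645926 (33.7 kb, 2.23) and from 8701093 to 8701303 (32.4 kb, 27.54). The nearest replicate 2 peak to them was between 17.1 and 37.7 kb away. None of the 5 was wider than 234 bp.

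Stretches without a peak took up most of the centre. Of the 627 intervals between neighbouring members, 155 were longer than 10 kb, 80 longer than 20 kb and 14 longer than 50 kb, and those over 20 kb added up to 2896 kb, or 56.8% of the centre. The longest ran from 9774953 to 9868781 (93.8 kb), the next from 8569585 to 8658796 (89.2 kb) and the third from 5105389 to 5178727 (73.3 kb). Replicate 1 had no peak in any of these 3, and replicate 2 had 1 in each. The fourth, from 8358696 to 8429015 (70.3 kb), and the fifth, from 9496319 to 9566078 (69.8 kb), had no peak in either list. The lists' thresholds are not stated in the sources used here, so the absence of a peak does not show absence of binding. The share of length in such stretches is not given here for the arms or the other centres.

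Members were uneven along the centre. Counts per window are not given here for the arms or the other centres, so whether this unevenness is particular to the centre is not known. In 51 windows of 100 kb the number of members ranged from 1 to 38, with a median of 11 and quartiles of 7 and 15. Only 7 windows held 20 or more members, and they contained 190 members (30.3%). The densest window ran from 5290001 to 5390000, with 38 members, 34 replicate 1 peaks and 13 replicate 2 peaks, and 11 of its members were found in both lists. The window from 6890001 to 6990000 held 33 members, of which 11 were found in both lists, and the one from 7590001 to 7690000 held 31, of which 8 were. A single member lay in each of the windows from 8590001 to 8690000 and from 9790001 to 9890000. The largest number of members was thus 38 times the smallest, on a background of windows that mostly held 7 to 15.

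**Figure D5:**
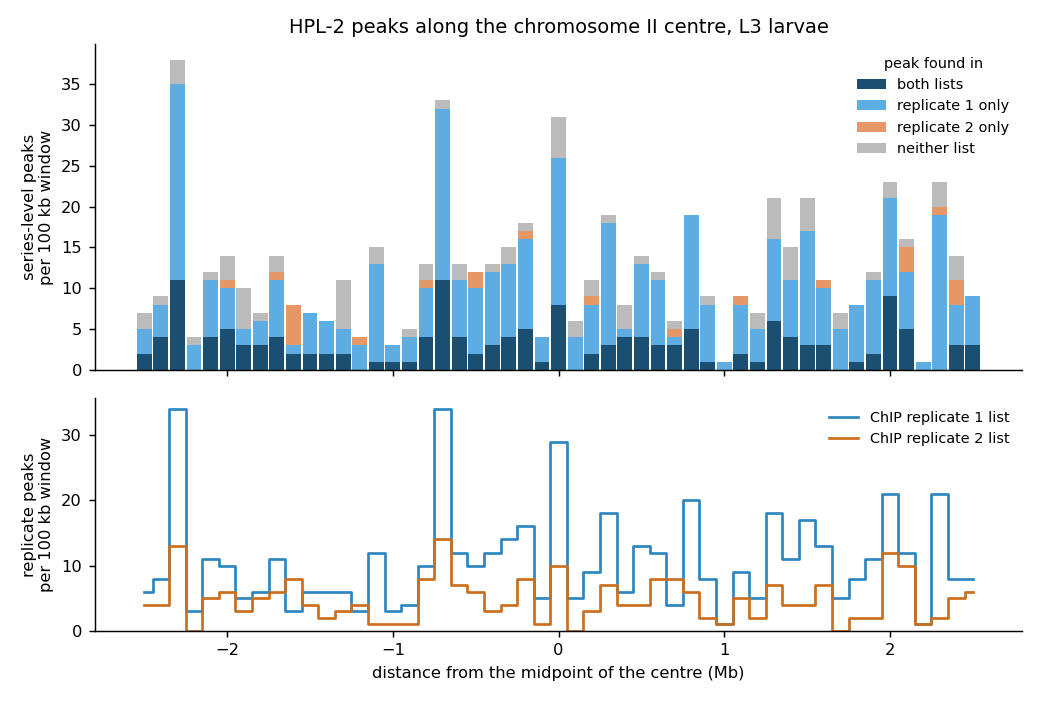
Series-level peaks per 100 kb window by support (upper panel) and peaks of each replicate list per window (lower panel), against distance from the midpoint of the chromosome II centre in Mb. The windows range from 1 to 38 members, and replicate 1 has more peaks than replicate 2 in 46 of 51 windows.

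Replicate 1 had more peaks than replicate 2 in 46 of the 51 windows, with medians of 9 and 4. In both lists the highest counts were in the windows that start at 5290001 (34 and 13 peaks) and at 6890001 (34 and 14). In 44 windows at least 1 member was found in both lists, and in 7 none was. These 7 included the window from 9890001 to 9990000, which held 23 members. Replicate 1 had 21 peaks there and replicate 2 had 2. Replicate 2 had more peaks than replicate 1 in 3 windows. In the one from 5990001 to 6090000 it had 8 against 3, and 5 of the 23 members found in replicate 2 only were there. In the one from 8290001 to 8390000 it had 8 against 4, and in the one from 6390001 to 6490000 it had 4 against 3.

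Across 5 equal stretches of the centre, each 1.02 Mb long, the number of members changed little. From left to right they held 123, 113, 147, 116 and 129 members. The adjoining 1.02 Mb of the left arm held 192 series-level peaks and that of the right arm 184, more than any of the 5 stretches. The share found in both lists was 30.9%, 25.7%, 23.8%, 24.1% and 20.2% in these stretches, and 26.6% and 32.1% in the neighbouring stretches of the left and right arm. Median widths ranged from 244 to 264 bp over the 5 stretches.

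Members merged where 1 kb or less lay between them formed 351 regions, and 242 of these were single peaks (68.9%), 88 held 2 to 4 peaks and 21 held 5 or more. The 21 contained 25.3% of the members, against 39.0% of arm peaks in such regions, and single peaks were 56.9% of the regions on the arms. Regions of 5 kb or more numbered 11 in the centre (3.13%) and 81 on the arms (6.36%). The widest in the centre ran from 5330173 to 5341211 (11.04 kb), against a maximum of 34.8 kb on the arms. Groups were thus present in the centre and smaller there.

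The widest region held 16 members, 12 of them found in replicate 1 only and 3 in both lists. Replicate 1 had 14 peaks of 6.85 kb in total there, with a top score of 32.69, and replicate 2 had 4 peaks of 0.835 kb with a top score of 8.58. The region from 7634213 to 7643722 (9.51 kb) held 9 members, 4 of them in both lists, with top scores of 44.01 in replicate 1 and 43.78 in replicate 2. The region from 6934824 to 6943971 (9.15 kb, 12 members) had its top score in replicate 2 (87.76, against 49.83 in replicate 1), although only 0.816 kb of it lay in replicate 2 peaks and 5.24 kb in replicate 1 peaks. The region from 7887255 to 7895896 (8.64 kb, 7 members) was the most filled, with 83.0% of its length in members, and contained the widest single peak. The region from 8475859 to 8483736 (7.88 kb, 9 members) had 10 replicate 1 peaks and 3 replicate 2 peaks. In these 5 regions replicate 1 peaks covered 2.56 to 8.20 times the length of replicate 2 peaks.

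Whether members found in both lists lay next to each other was read from their nearest neighbour. The nearest series-level peak was itself found in both lists for 50 of the 156 (32.1%), against 25% over all members. On the arms these shares were 58.8% and 50.6%. For members in replicate 1 only the share was 19.8%, for those in neither list 30.9% and for the 23 in replicate 2 only 39.1% (9 members), so it was not highest for members found in both lists.

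Seen from the replicate lists, with 1 bp of overlap required, the centre differed from the arms in 1 direction. Of the 543 replicate 1 peaks in the centre, 158 overlapped a replicate 2 peak (29.1%, interval 25.4 to 33.1%), against 58.3% of the replicate 1 peaks on the chromosome II arms and 52.2% over all chromosomes. Of the 243 replicate 2 peaks, 177 overlapped a replicate 1 peak (72.8%, interval 66.9 to 78.0%), against 73.9% on the arms and 74.1% over all chromosomes. The lower sharing of replicate 1 peaks thus went with the smaller number of replicate 2 peaks. With a reciprocal overlap of 50% required, the centre shares were 17.5% of replicate 1 and 39.1% of replicate 2 peaks. Arm shares under that rule are not given here. Of the 25 highest-scoring replicate 1 peaks in the centre, 23 overlapped any replicate 2 peak. Of the 25 highest-scoring replicate 2 peaks, 25 overlapped any replicate 1 peak. Among the top 100 these numbers were 70 and 88. Fewer matched when the other list was also cut to its top peaks. Then 16 of the top 25 replicate 1 peaks (64%) and 45 of the top 100 (45%) were found. With 243 peaks taken from each list, 114 of the replicate 1 peaks were found (46.9%, interval 40.7 to 53.2%).

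Shared and unshared peaks differed more in replicate 1 than in replicate 2. The median width was 367.5 bp for shared and 225 bp for unshared replicate 1 peaks, and 197 bp and 189.5 bp for replicate 2 peaks. Median scores were 19.7 and 7.46 in replicate 1, and 9.37 and 6.44 in replicate 2. On the arms shared replicate 2 peaks had a median width of 276 bp, against 187 bp for the unshared ones. In the chromosome II centre, width therefore separated shared from unshared replicate 2 peaks little. In the other centres these medians lay farther apart, at 218 to 238 bp for shared and 175 to 190 bp for unshared peaks.

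Some members with high scores had support from replicate 1 alone. The highest was a peak from 8569354 to 8569584 (231 bp, score 67.25), with a replicate 1 score of 50.48 (93.5th percentile of that list) and the nearest replicate 2 peak 55.7 kb away. The next, from 5105108 to 5105388 (281 bp, score 61.71), borders the 73.3 kb stretch without a peak, and its nearest replicate 2 peak was 4.88 kb away. A peak from 9566079 to 9566365 (287 bp, 58.27) borders the 69.8 kb stretch. The peaks from 8456984 to 8457671 (688 bp, 50.05) and from 6897767 to 6898274 (508 bp, 44.51) had a replicate 2 peak 869 and 3687 bp away. In all, 37 of the 368 members in replicate 1 only were in the top score quartile of the series-level list (10.1%). Over all chromosomes 8.74% of the peaks in replicate 1 only were. No member in replicate 2 only was in that quartile, and neither was any of the 1919 such peaks over all chromosomes.

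Members in replicate 2 only had low series-level scores. Of the 5 highest, 3 lay close together, from 6008236 to 6008420 (score 14.65), from 6009447 to 6009638 (9.93) and from 6022049 to 6023136 (1088 bp, 10.29), with replicate 2 scores of 22.43, 17.22 and 17.05. The other 2, from 9757823 to 9758014 and from 8353377 to 8353546, scored 9.20 and 8.17. The highest-scoring member in neither list ran from 6536033 to 6536187 (155 bp, score 17.14), and the nearest replicate 1 and replicate 2 peaks were 9.55 and 43.9 kb from it. The other 4 of the 5 highest in that class scored 9.58 to 11.05 and were 146 to 397 bp wide.

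The series-level list omitted few peaks of replicate 1 and more of replicate 2, in the centre as elsewhere. In the centre 532 of 543 replicate 1 peaks overlapped a series-level peak (98.0%), against 98.4% on the chromosome II arms and 98.3% over all chromosomes. Of the 243 replicate 2 peaks 198 did (81.5%), against 84.7% on the arms and 85.6% over all chromosomes. The 11 replicate 1 peaks without one had a median score of 2.95, and the 45 replicate 2 peaks a median of 5.74 and a highest score of 14.03. Replicate 2 peaks without a series-level peak among them formed 2 runs of 3 or more. One ran from 8202370 to 8206229 with 3 peaks (median score 8.52), and the other from 8288540 to 8292659 with 6 peaks (median score 5.83). The sources used here do not state how the series-level list was made from the replicates.

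The position of these peaks relative to genes is not reported. The gene table at hand is on another build (WBcel235) than the peaks (WS220), and coordinates of the 2 builds were not mixed, so no gene or DNA sequence is assigned to a peak.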

How the data were processed

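Peak positions and a score per peak were used as deposited by the authors in 1 series-level list and 1 list for each of the 2 ChIP replicates. Per the file headers, coordinates are on WormBase WS220, counted from 1, and the source column names MACS. The submitters' processing notes name BWA and ce10. The MACS version, threshold and control, and the way replicates were combined, are not stated in the sources used here. Read depth is unknown from peak lists. Nothing in the labels says that the replicates came from separate cultures, so their spread may be technical. Samples were grouped by their titles.

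Chromosome length was taken as the largest peak end over the 3 lists, and the centre is the middle one of 3 equal parts, with bounds rounded to 10 kb. Overlap of 1 bp counted as support. Gaps are edge to edge, within 1 list. Intervals are Wilson 95% intervals and cover counting error only. Code ran in Python 3.11.15 with pandas 2.3.3, numpy 2.4.6 and scipy 1.17.1 and was tested on simulated lists.

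Regions named are the 10 highest-scoring members found in both lists (ties by width), the 5 widest, the 5 most isolated, the 5 highest-scoring of each other support class, the 5 widest merged regions, the windows with most and fewest members and runs of 3 or more replicate 2 peaks without a series-level peak. Other windows, the longest stretches without a peak and the bounding peaks were named after their values were seen. The members, lists and rules were chosen with earlier results of these data known. Gene position and its 2 alternatives were planned and are not reported.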

Additional observations from a re-analysis of the deposited data

How the results depend on the processing

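Of 42 alternative settings over 7 results, 24 left the value within the replicate SD or its Wilson interval and 18 moved it. A reversed direction could be recorded only for the log2 density ratio, which stayed negative in all its settings. The other results are shares or ratios for which no reversal was looked for. The share of members found in both lists (24.8%) became 15.8% when replicate peaks had to cover 50% of the member, 15.4% with reciprocal overlap of 50%, 47.9% for members scoring at or above the list median and 33.9% after merging over 1 kb. With support from a single list it was 28.5% (replicate 2) and 83.4% (replicate 1). The ratio of median width, found in both over the rest, was 1.98 and became 1.27 when 50% of the member had to be covered and 1.27 with reciprocal overlap, and ranged from 1.65 to 1.72 with a single list. The same ratio for scores was 3.74, and 2.52 to 3.11 with a single list. The isolated share (16.4%) became 29.0% at a gap over 2 kb and 8.28% at a gap over 10 kb (a move within the wide replicate SD of 11.4), 51.1% with only peaks found in both lists as neighbours, 35.9% for scores at or above the median, and 17.7 to 33.7% in a single replicate list. Replicate 1 peaks shared with replicate 2 (29.1%) became 18.4% under 50% coverage and 17.5% under reciprocal overlap, and 46.9% with equal numbers of peaks, a setting chosen after seeing the data. Replicate 2 peaks shared (72.8%) became 39.1% under reciprocal overlap. The log2 density ratio of centre to arms (-1.20) ranged from -2.27 to -1.23 in a single list and was -0.86 for merged regions. The cause of these moves was not tested. Of 35 named members, 29 kept their number of supporting lists under 50% coverage and 28 under reciprocal overlap. The replicate SDs come from 2 lists that are also alternatives, so they are a weak yardstick. No paired analysis was possible because only ChIP peak lists were analysed, and the inputs that carry the same replicate numbers were not. No replicate can be left out of the sharing between lists, and the 2 alternatives for gene position were not run.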
